A study of Sus scrofa with 3 samples.

Results

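Solute carriers are the large superfamily of membrane transporters that move amino acids, sugars, ions, metals, carboxylates and vitamins across cell and organelle membranes. Their expression was described here in PIE cells, which were labelled as an epitheliocyte line, not transformed, that came from the intestine of a newborn, unsuckled pig. Members were all non-control probes of a porcine Agilent array whose gene name begins with SLC, a family number, the letter A and a further number. This gave 203 probes for 105 genes of 32 families, out of 4641 genes on the array with a recognised symbol. Each gene was represented by its brightest probe. Of the 105 symbols, 103 are transporters, and the other 2, SLC9A3R1 and SLC9A3R2, are scaffold proteins that bind a sodium-proton exchanger and carry the prefix for that reason. Names outside this pattern, such as SLC35B2 or SLCO2A1, are not counted as members. A set of 33 further genes, which have a solute carrier symbol but carry another name on the array, is described at the end.

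The study asked how lactobacilli alter the response of these cells to ETEC PAMPs, the molecular patterns by which hosts sense a pathogen, here enterotoxigenic Escherichia coli, which causes diarrhoea in piglets. All groups shared 3 days of culture on collagen and the same 12 h challenge. The ETEC group received medium without bacteria for the preceding 48 h, the TL2937+ETEC group received Lactobacillus jensenii TL2937, and the TL2766+ETEC group received Lactobacillus plantarum TL2766. Bacteria were washed off before the challenge. Each group was 1 culture on 1 array, and unchallenged cells were not analysed here, so a difference below is between lactobacillus-treated and untreated cells that had all met the PAMPs.

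In the gut, a brush-border set of solute carriers takes up nutrients from the lumen, and a basolateral set passes them to the blood. Most of these carriers are driven by the sodium gradient of the sodium pump, by a proton gradient or by exchange of one solute for another. Glucose enters enterocytes through SGLT1 (SLC5A1) and leaves through GLUT2 (SLC2A2), dipeptides enter through PEPT1 (SLC15A1), neutral amino acids through SLC6A19, and acidic amino acids through SLC1A1. Zinc is imported by the SLC39 family and removed from the cytosol by the SLC30 family, while the SLC25 family spans the inner mitochondrial membrane.

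Values are scaled intensities: the log2 processed intensity minus the array's 75th percentile, put back on a linear scale at the geometric mean of the 3 percentiles, 481. A probe's level depends on its sequence as well as on its RNA, so values were compared between arrays within a probe and not between genes. The 75th percentiles were 459 to 504, and 60.9% to 62.5% of spots carried the scanner software's flag for a signal well above background. No spot was saturated. With 1 array per group there is no test and no p-value, and effects of group, of culture and of the array's place on the slide cannot be told apart. In RNA from a whole culture, fewer cells of a type and less RNA per cell cannot be told apart either. The error available is that of the spots: between 129 and 130 pairs of probes with identical sequence gave an SD of a log2 difference of 0.10 with TL2937 against ETEC, 0.12 with TL2766 against ETEC and 0.076 when the lactobacilli were compared. It was larger for dim probes. Below a scaled intensity of 100 it was 0.27, 0.33 and 0.14 in the same order (13 to 14 pairs), and from 1000 upwards it was 0.049, 0.055 and 0.053 (83 pairs). A second spot error came from 50 probes with 3 to 5 spots each. The median SD of a log2 difference between spots of a probe was 0.19, 0.19 and 0.18 in the same order. The largest was 1.44, 1.88 and 1.66. Neither error covers differences between cultures.

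The label of an intestinal epithelial cell was set against marker genes. EPCAM, an epithelial adhesion molecule, had 18 probes, of which 16 were well above background on no array and 0 on all 3. KRT18, an epithelial keratin, lay at 2.86, 2.51 and 2.65 in the order ETEC, TL2937+ETEC, TL2766+ETEC, which is kept for all triples of values from here on, and CLDN4 was likewise not well above background. Of 8 epithelial markers on the array, 4 had a probe well above background on all 3 arrays: OCLN at 1141, 922 and 967, and KRT8, CLDN3 and CLDN7 at between 13.9 and 23.9. CDH1, the cadherin of epithelial junctions, was well above background on 2 arrays, at 17.2, 25.1 and 8.63. The summed level of the 8 was 1242, 1023 and 1067; such sums run over different probes for each list and are set only between arrays. Of 5 endothelial markers, 4 were well above background on all 3 arrays, and the summed level of the 5 was 148987, 143813 and 144224. PECAM1, an endothelial adhesion molecule, gave 86709, 84011 and 85382 with 4 of 4 probes well above background, and CDH5, the cadherin of endothelial junctions, gave 60384, 56571 and 55886. The endothelial receptor TEK was 0.85 and 0.71 higher on the log2 scale with TL2937 and TL2766 than without. KDR was 0.58 and 0.50 higher. PECAM1, at -0.05 and -0.02, and CDH5, at -0.09 and -0.11, lay slightly below 0. VWF gave 22.7, 15.5 and 13.8, at -0.55 with TL2937, and was not well above background with TL2766. With TL2937, 3 of the 5 lay below 0, with a median of -0.05. By which markers were detected, and not by their sums, the data go against an epithelial label in part. Of 5 enterocyte markers 2 had a probe above background on all 3 arrays, APOA1 and APOA4, and FABP1 and FABP2 had none on any array. Their summed level was 31568, 27818 and 27195. The counts were 4 of 4 for fibroblast, 2 of 3 for smooth muscle, 2 of 6 for leukocyte and 3 of 4 for enteroendocrine markers, whose sum was 60862, 58235 and 62285. Nearly all of that sum came from 1 CHGA probe, at 60792, 58077 and 62080, while the other 2 CHGA probes were above background on no array. The fibroblast sum was 214, 191 and 196, and DCN in that list was detected by 1 of 5 probes. In these lists, the smooth muscle actin ACTA2 was dimmer with lactobacilli (53725, 41872 and 47439). The hormone gene SST was brighter (23.8, 107 and 150), while CHGA lay at -0.07 and 0.03, CHGB at 0.12 and 0.27, and GCG at background. The leukocyte marker PTPRC was not well above background, but CD14 was, at 623, 723 and 741, and so was AIF1, at 62.0, 56.8 and 66.9. The part that cell identity plays in the transporter values below was not tested.

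Of the 105 solute carriers, 73 were well above background on all 3 arrays (69.5%, against 73.3% of all named genes), 10 on 1 or 2 arrays and 22 on none. Of those 22, 21 had no probe well above background on any array. The other, SLC15A1, had a second probe above it on the TL2766+ETEC array alone. Detection differed between substrate classes. Metal carriers were well above background on all 3 arrays in 13 of 15 genes, sugar carriers in 12 of 14, mitochondrial carriers in 8 of 8 and amino acid carriers in 13 of 18. Inorganic ion carriers reached that in 10 of 23.

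**Figure D1:**
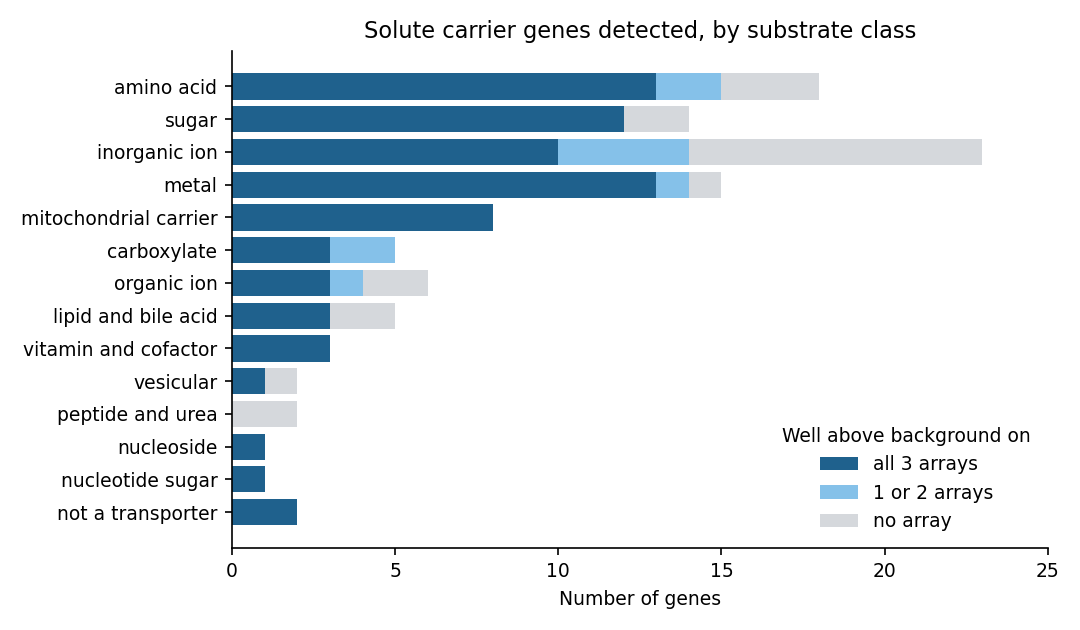
Number of solute carrier genes (x axis) in each substrate class (y axis), split by whether the gene's brightest probe was well above background on all 3 arrays, on 1 or 2, or on none. The mitochondrial class is filled to 8 of 8, while inorganic ion carriers reach 10 of 23 and both peptide carriers lie in the part for no array.

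Of the 5 enterocyte carriers introduced above, SLC5A1 and SLC1A1 were well above background on all 3 arrays and are described below, and the other 3 were not by their brightest probe. SLC15A1, the dipeptide carrier, gave 11.5, 10.8 and 10.3, where the lowest signal flagged above background was 12.9, 11.6 and 11.8. SLC6A19, the apical neutral amino acid carrier, gave 13.8, 7.53 and 9.98. SLC2A2, the basolateral glucose carrier, gave 2.85, 5.43 and 2.62. The sodium-proton exchanger SLC9A2 and the sodium phosphate carrier SLC34A2 were also not well above background on any array. SLC9A3, the apical sodium-proton exchanger, gave 24.2, 28.8 and 24.7, close to background. SLC11A2 (DMT1), the apical iron importer, gave 84.5, 92.7 and 91.0, with both lactobacilli within 1.2-fold of ETEC.

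Across the measured solute carriers the differences were small. With TL2937, 73 genes were measured on this array and the ETEC array, and their median log2 difference was -0.02, beside -0.04 over 3446 named genes. Beyond 2-fold there were 0 higher genes (0.29% of all named genes) and 1 lower gene (0.174%). At a smaller size, 8 genes were higher by at least 1.2-fold (7.34% of all named genes) and 7 were lower by as much (13.1%), so 58 of 73 lay within 1.2-fold. In TL2766+ETEC against ETEC, 75 genes were measured, with a median of 0.03 beside -0.004 over 3423 genes. Beyond 2-fold there were again 0 higher (0.467%) and 1 lower (0.234%), and beyond 1.2-fold 4 higher (8.44%) and 5 lower (9.03%). Both comparisons share the ETEC array. These shares are near those of all named genes and rest on few genes. The difference of a gene was over 2 SD of same-sequence pairs of its brightness in 33 of 73 genes for TL2937 and in 15 of 75 for TL2766. This describes spots and not cultures. The same count was not made over all named genes, so it is not read as a trait of solute carriers.

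**Figure D2:**
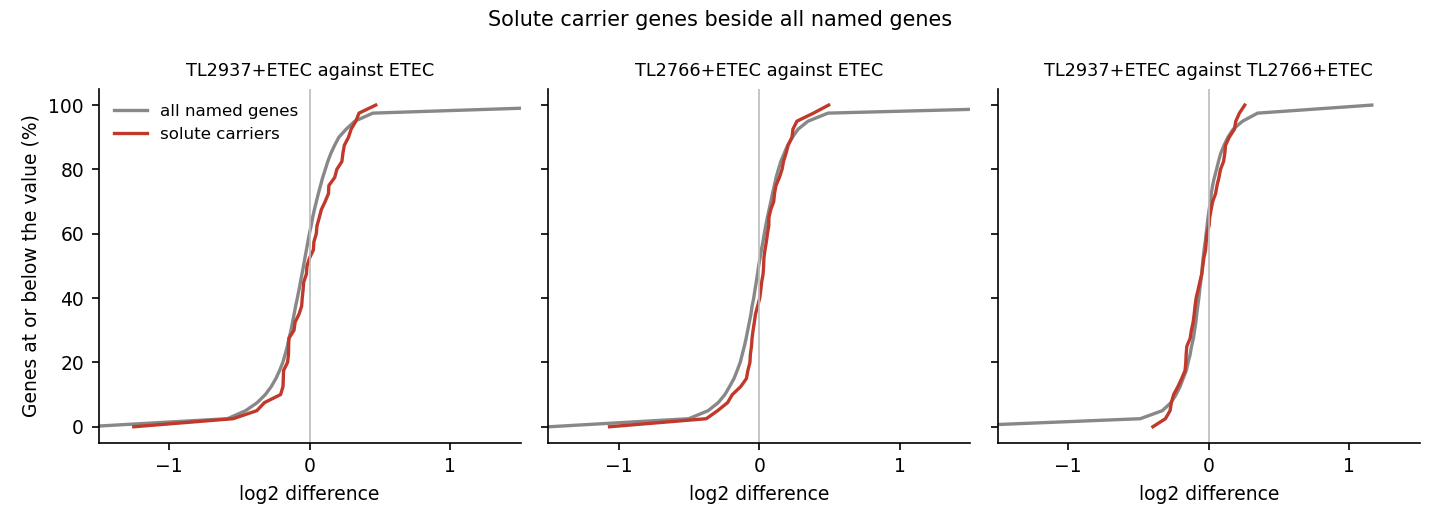
Percentage of genes (y axis) at or below each log2 difference (x axis, shown from -1.5 to 1.5; all-gene curves run past it) for solute carriers (red) and all named genes (grey), in the 3 comparisons. Medians of the solute carriers are -0.02, 0.03 and -0.04, and the red curve has 1 gene at or below -1 in each of the first 2 panels.

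The gene at least 2-fold lower was the same in both comparisons. SLC1A1 (EAAC1, EAAT3), the sodium-dependent carrier of glutamate and aspartate, gave a scaled intensity of 165 in ETEC, 69.4 in TL2937+ETEC and 78.9 in TL2766+ETEC. The ETEC array stood apart and the lactobacillus arrays lay close together. The log2 difference was -1.25 with TL2937 (2.38-fold lower) and -1.06 with TL2766 (2.09-fold lower), and the lactobacilli differed from each other by -0.19. Its mean over the arrays, 96.7, lay among the probes below 100. There, gaps between same-sequence probes reached 1.04 with TL2937 and 1.18 with TL2766. The difference with TL2937 was thus beyond the largest gap, and that with TL2766 was not. For SLC1A1, 3 probes of the array are described, all on the transcript NM_001164649. Their positions are counted in that transcript, and genome coordinates are not used here. Because the result rests on these oligos, they are printed 5′ to 3′ in order of position, the first 2 whole and the last by its first 30 bases.
SLC1A1 at 677: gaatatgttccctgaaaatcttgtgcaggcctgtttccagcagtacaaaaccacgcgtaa
SLC1A1 at 1146: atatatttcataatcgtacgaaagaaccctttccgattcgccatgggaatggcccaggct
SLC1A1 at 3964: gggaagataaaagctggttcaaaattactc

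The probe at 3964 is the brightest, whose values are given above. The other 2, which share no bases with it or each other by position, were dimmer and were well above background on all 3 arrays. The probe at 677 gave 42.8, 25.9 and 25.98. The probe at 1146 gave 42.8, 18.3 and 15.6. Each of these 3 probes was thus brightest on the ETEC array. Their log2 differences ran from -1.25 to -0.72 with TL2937 and from -1.46 to -0.72 with TL2766. The probes disagreed on which lactobacillus array was lower: the direct difference was -0.19 at 3964 and 0.23 at 1146. They read the same RNA of 1 culture per group, so they are no replicates of the treatment. With a normexp background correction (offset 50), which pulls dim signals together, the differences of the brightest probe were -0.83 and -0.72 and the gene was no longer at least 2-fold lower in either comparison.

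**Figure D3:**
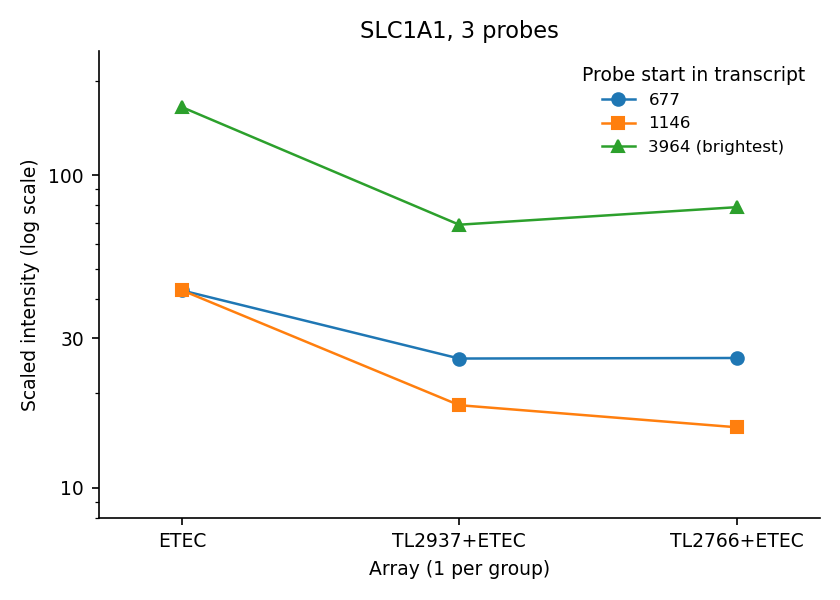
Scaled intensity (log axis) of 3 SLC1A1 probes on the 3 arrays, 1 line per probe, labelled by its start in the transcript. All 3 lines are highest on the ETEC array, from 42.8 to 165, and the 2 dimmer probes lie between 15.6 and 25.98 with lactobacilli.

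Of the 13 amino acid carriers measured in each comparison, SLC1A1 included, 10 lay within 1.2-fold with TL2937 and 10 with TL2766. Of all named genes, 2741 of 3446 and 2825 of 3423 did. Below 0 lay 11 of 13 with TL2937, beside 2077 of 3446 of all named genes, and 8 of 13 with TL2766, beside 1739 of 3423. The class medians were -0.05 and -0.03, beside -0.04 and -0.004 for all named genes. SLC1A5 (ASCT2), the glutamine carrier, gave 25199, 26085 and 26415. Its 3 probes lay between -0.01 and 0.14 in both comparisons, beside a range of -1.46 to -0.72 for the 3 probes described of its family member SLC1A1. SLC3A2, the heavy chain that partners the light chains of the SLC7 family, gave 4821, 4238 and 4735. SLC7A1 (CAT1), an importer of arginine and lysine, gave 11055, 9648 and 10791. Both were slightly dimmer with TL2937, at -0.19 and -0.20, and at -0.03 with TL2766. SLC7A2, a second cationic amino acid carrier, gave 9320, 9198 and 10978, higher by 0.24 with TL2766 and flat with TL2937. The cystine-glutamate exchanger SLC7A11 gave 440, 433 and 474, within 1.08-fold of ETEC in either treatment. SLC38A7, a lysosomal glutamine and asparagine exporter, was higher with both, at 187, 229 and 234 (log2 differences of 0.29 and 0.32). SLC6A17, a neutral amino acid carrier of neurons, was lower, at 26.95, 18.04 and 23.2, with a log2 difference of -0.58 with TL2937 and -0.22 with TL2766, all near background. SLC3A1, the heavy chain of the cystine carrier, gave 90.6, 87.5 and 73.3. A second probe of it 2 bases away gave 92.6, 72.9 and 77.3, so which lactobacillus array was lower depended on the probe.

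**Figure D4:**
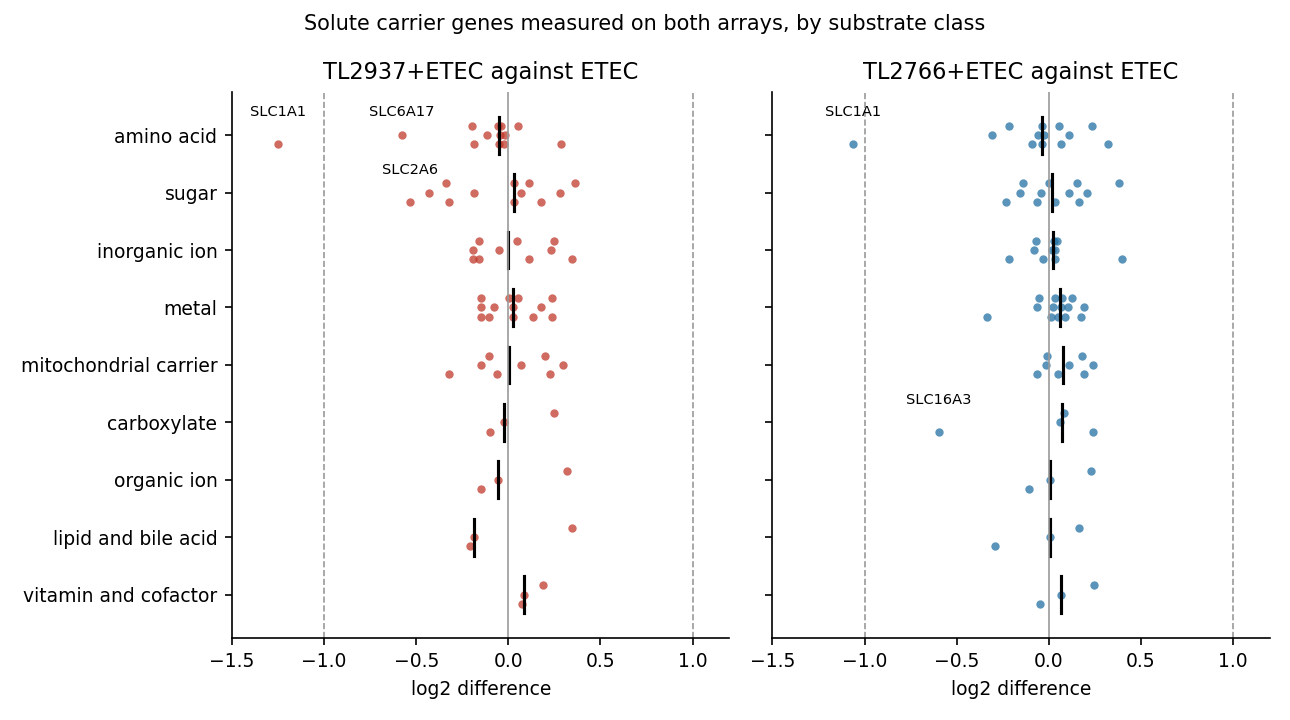
Log2 difference (x axis) of solute carriers measured on both arrays, in 9 substrate classes (y axis), for TL2937+ETEC (left) and TL2766+ETEC (right) against ETEC. Points are genes, the black bar is the class median, dashed lines mark 2-fold and names are given from 1.4-fold. The vesicular class with SLC17A4, the nucleoside and nucleotide sugar classes and the scaffolds are not shown. SLC1A1 is the gene beyond 2-fold in both panels, at -1.25 and -1.06, and no median of the 9 classes shown is farther from 0 than -0.19.

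Of 12 sugar carriers measured, 2 were higher and 4 lower by at least 1.2-fold with TL2937, where 7.34% and 13.1% of all named genes were. With TL2766, 1 was higher and 0 lower, beside 8.44% and 9.03%. The class medians were 0.03 and 0.02. SLC2A6 (GLUT6), a lysosomal hexose carrier, gave 2462, 1698 and 2236. It was 1.45-fold lower with TL2937 (-0.54), beyond any gap between same-sequence probes of its brightness (0.17), and at -0.14 with TL2766. Of the 73 solute carriers measured with TL2937, 18 lay beyond the largest gap of their brightness. SLC2A8 (GLUT8), another intracellular hexose carrier, gave 3496, 4254 and 4044, higher by 0.28 and 0.21. SLC2A1 (GLUT1), the common basal glucose carrier, gave 980, 862 and 1058, at -0.19 with TL2937 and 0.11 with TL2766. Its neuronal relative SLC2A3 (GLUT3) gave 49.5, 53.4 and 64.6, at 0.11 and 0.38. These 4 hexose carriers have 1 probe each.

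The sodium-coupled glucose carrier SLC5A1 depended on the probe. Its brightest probe gave 99.5, 128 and 111, a log2 difference of 0.36 with TL2937 and 0.16 with TL2766. The 2 further probes above background on all 3 arrays lay at 0.01 each with TL2937 and at -0.25 and 0.04 with TL2766. SLC5A10, a mannose and fructose carrier, gave 247, 198 and 210 by its brightest probe and 143, 139 and 222 by the other, so with TL2766 the probes had opposite signs (-0.23 and 0.63). SLC2A4 (GLUT4), the insulin-responsive carrier, gave 100.7, 79.5 and 96.4 by its brightest probe, while 2 of its other 3 probes were well above background on no array and the last on 1. SLC5A9, a mannose carrier, gave 47.6, 35.3 and 42.7, at -0.43 with TL2937. SLC37A4, which carries glucose 6-phosphate into the endoplasmic reticulum, gave 140611, 143532 and 140515, within 1.02-fold across all 3 arrays. SLC2A11 gave 25992, 29425 and 26563, and SLC5A4 gave 4445, 4541 and 4940.

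Among inorganic ion carriers, 10 of 23 genes were measured in both comparisons, and their medians lay at -0.003 with TL2937 and at 0.02 with TL2766. In each comparison 9 of the 10 lay within 1.2-fold, beside 2741 of 3446 and 2825 of 3423 of all named genes. SLC4A2 (AE2), a chloride-bicarbonate exchanger, gave 14033, 12584 and 13400, at -0.16 and -0.07, but a dimmer probe of it lay at 0.12 and 0.16. SLC4A11, a borate-transporter-like member of the bicarbonate family, gave 18232, 21435 and 18436. Both of its probes read 0.23 with TL2937 and at most 0.04 with TL2766. SLC12A4 (KCC1), a potassium-chloride cotransporter, gave 2836, 2487 and 2682. SLC26A6, an anion exchanger, gave 349, 377 and 358. The scaffolds of the exchanger SLC9A3 differed little: SLC9A3R1 gave 613, 607 and 578, and SLC9A3R2 gave 2187, 2403 and 2408.

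Metal carriers lay near 0, as most named genes did. With TL2937, 13 of 13 measured genes lay within 1.2-fold of ETEC, beside 2741 of 3446 of all named genes. With TL2766, 13 of 14 did, beside 2825 of 3423. The class medians were 0.03 and 0.06. SLC39A14 (ZIP14), an importer of zinc, manganese and iron that is known to respond to inflammation, gave 20327, 23942 and 22221. It was higher by 0.24 with TL2937 and by 0.13 with TL2766, against a spot SD of 0.049 and 0.055 at this brightness, but its other probe, at 47.9, 40.3 and 58.3, had -0.25 and 0.28. SLC39A7 (ZIP7), which releases zinc from the endoplasmic reticulum, gave 11027, 11053 and 11719, and its 4 probes lay between -0.02 and 0.09. SLC39A1 gave 1459, 1512 and 1493. Of the zinc exporters, SLC30A7 gave 8418, 7589 and 8119, and SLC30A1, the plasma membrane exporter induced by zinc, gave 659, 594 and 691. A second SLC30A1 probe gave the same -0.15 with TL2937. SLC39A5, a basolateral zinc importer of enterocytes, had probes of opposite sign with TL2937 (0.24 and -0.37). SLC30A2 was the metal carrier beyond 1.2-fold with TL2766, at 20.1 in ETEC and 15.9, and was not well above background with TL2937. SLC11A1 (NRAMP1), a phagosomal metal carrier of macrophages, gave 512, 578 and 577 by its brightest probe, while its other probe was at background.

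All 8 mitochondrial carriers were measured. SLC25A6, an ADP/ATP exchanger, gave 213349, 192651 and 211928, and SLC25A3, the phosphate carrier, gave 73112, 70012 and 72239. The 10 probes of SLC25A3 lay between -0.10 and 0.13 in both comparisons. The 6 probes of SLC25A6 were all below 0 with TL2937, from -0.18 to -0.09. SLC25A32, a folate and flavin carrier, gave 421, 483 and 481. SLC25A23, a calcium-regulated ATP-magnesium carrier, was lower with TL2937 at 143, 114 and 136 (-0.32 and -0.07). SLC25A43, an orphan carrier, gave 1558, 1632 and 1764.

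Of the monocarboxylate carriers, SLC16A1 (MCT1), which takes up lactate and butyrate, gave 676, 802 and 798 by its brightest probe. The difference was small, 0.25 with TL2937 and 0.24 with TL2766, but 7 of 7 probes read above 0 in both comparisons. They are not 7 separate stretches: 3 of them start at 2992, 2993 and 3021 of one transcript and overlap. The 7 ran from 0.08 to 0.39 with TL2937 and from 0.17 to 0.28 with TL2766. The lactate exporter SLC16A3 (MCT4) went the other way on a single dim probe, at 23.9 in ETEC and 15.8 with TL2766 (1.51-fold lower). On the TL2937+ETEC array it was not well above background, at 13.9, so by the processed intensity ETEC was at least 1.72-fold higher. That bound depends on the setting: over the alternatives tried, its log2 difference with TL2937 ran from -0.79 to -0.17. SLC16A7 (MCT2) gave 161, 150 and 168, and SLC16A9 gave 64.2, 63.3 and 68.0. BSG, the chaperone that MCT1 and MCT4 need at the surface, gave 3209, 2953 and 3175.

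Among the smaller classes, the lipid carrier SLC27A3 gave 151, 191 and 169, at 0.34 and 0.16, and its dimmer probe gave 0.37 and -0.38. SLC27A1, a fatty acid carrier, gave 240, 211 and 196, at -0.19 and -0.29, with a dimmer probe at 0.62 and 0.13. SLC10A7 gave 336, 290 and 337. SLC17A4, a family 17 anion carrier of the gut placed here with the vesicular carriers, gave 16.1, 22.3 and 22.7, the highest positive values in both comparisons (0.47 and 0.49), just above background on each array. The organic cation carriers SLC22A4 (OCTN1) and SLC22A2 gave 1715, 1649 and 1726, and 25.2, 22.7 and 23.4. SLC22A7 gave 42.2, 52.6 and 49.4. The nucleoside carrier SLC29A1 (ENT1) gave 6575, 7228 and 6345. Of the vitamin carriers, SLC19A1, the reduced folate carrier, gave 1476, 1682 and 1548, and SLC23A2, an ascorbate carrier, gave 45.7, 48.2 and 54.2.

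A few genes were well above background on 1 or 2 arrays. SLC26A3 (DRA), the chloride-bicarbonate exchanger of the colonic surface, gave 28.6 on the ETEC array and 2.40 and 2.45 with lactobacilli, so the ETEC value was at least 2.48-fold that of TL2937+ETEC and at least 2.43-fold that of TL2766+ETEC. Its other probe lay at background on all 3 arrays. The bounds rest on the lowest signal flagged above background on the dim array. SLC7A9, the light chain of the cystine carrier, gave 21.0 on the ETEC array, at least 1.82-fold and 1.78-fold higher, and its other probe was also at background throughout. SLC30A2 was at least 1.74-fold higher in ETEC than with TL2937. These bounds hold for the processed intensity: over the alternatives tried, the log2 difference of SLC30A2 with TL2937 ran from -0.84 to -0.18. In the other direction, SLC6A14, a broad neutral and cationic amino acid carrier, gave 18.96 with TL2766, at least 1.47-fold above ETEC and at least 1.64-fold above TL2937+ETEC. SLC22A3 gave 18.9 with TL2937, at least 1.47-fold above ETEC. Each of the last 2 has a single probe. At this brightness, gaps between same-sequence probes below 100 reached 1.04 and 1.18 on the log2 scale in the comparisons against ETEC, which is wider than these bounds other than those of SLC26A3.

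Genes with several probes showed how far a single value can be trusted. In TL2937+ETEC against ETEC, 36 genes had 2 or more measured probes. These agreed in sign in 20 genes, and the largest and smallest differed by over 1.5-fold in 4. In TL2766+ETEC against ETEC the counts were 19 of 37 and 3. SLC44A4, a choline and thiamine pyrophosphate carrier, was among the genes with a wide gap, and its probes are shown because 3 of them share 48 bases, given in capitals for the first 30 bases of each.
SLC44A4 at 2182: cctcccagcctcATTCCCGCCTTCCAGATG
SLC44A4 at 2189: gccttATTCCCGCCTTCCAGATGTCGATTT
SLC44A4 at 2191: ctcATTCCCGCCTTCCAGATGTCGATTTTG

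The probe at 2182 gave 416, 442 and 402. The probe at 2189 gave 58.0, 85.6 and 80.8, and the probe at 2191 gave 56.2, 98.1 and 92.0. The shared bases therefore came with log2 differences of 0.09 and -0.05 at 2182, 0.56 and 0.48 at 2189, and 0.80 and 0.71 at 2191. By the brightest probe the gene was flat, and by the 2 dimmer probes it was higher with both lactobacilli. Why they differ was not tested.

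**Figure D5:**
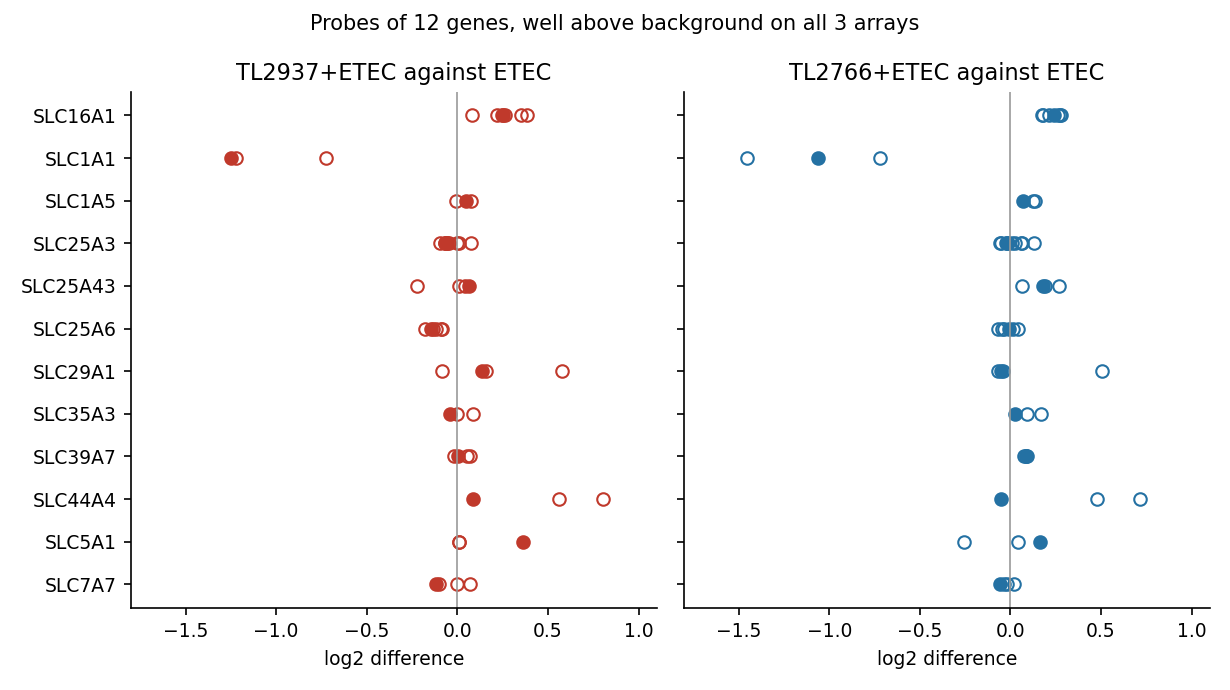
Log2 difference (x axis) of probes well above background on all 3 arrays, for 12 solute carriers (y axis), for TL2937+ETEC (left) and TL2766+ETEC (right) against ETEC; the filled point is the brightest probe. SLC1A1 lies below -0.7 in both panels with the 3 probes described above, SLC16A1 above 0 with 7 of 7, and SLC44A4 and SLC29A1 are spread over more than 0.5.

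The dim carriers also depended on the background correction. With normexp, SLC17A4 was at 0.10 with TL2937 and 0.14 with TL2766, and SLC6A17 at -0.12 with TL2937. SLC16A3 was at -0.18 with TL2766, and SLC2A3 at 0.13. These and the following kept their sign and became smaller than with the processed intensity. SLC5A9 was at -0.23, SLC38A7 at 0.15, SLC5A1 at 0.19 and SLC27A3 at 0.19 with TL2937. SLC2A3 with TL2937, small to begin with, turned from 0.11 to -0.11. SLC2A6, a bright gene with 1 probe, stayed between -0.56 and -0.50 with TL2937 under every scaling and background setting tried. The probe setting could not change it, because there was no other probe to average. With the mean of all probes SLC5A1 was at 0.09 and SLC5A10 at -0.18 with TL2937, and the signs of SLC2A4 with TL2937 and of SLC27A1 with TL2766 turned, to 0.018 and 0.12. With TL2766 those of SLC5A10, SLC27A3 and SLC2A4 turned too, to 0.20, -0.11 and 0.10.

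The lactobacilli were then set against each other. Among 73 genes measured in both, those beyond 2-fold numbered 0 higher with TL2937 (0.0579% of all named genes) and 0 lower (0.261%). At 1.2-fold, 0 were higher (4.26%) and 6 lower (7.82%), and the median was -0.04 beside -0.05. The 6 comprised 5 sugar carriers and 1 amino acid carrier: SLC2A6 at -0.40, SLC6A17 at -0.36, SLC2A1 at -0.29, SLC2A4 at -0.28, and SLC2A3 and SLC5A9 at -0.27. SLC2A6 and SLC6A17 lay beyond the largest gap between same-sequence probes of their brightness. SLC2A1 was over 2 SD but inside that gap (0.41), and SLC2A4, SLC2A3 and SLC5A9 lay within 2 SD. Sugar carriers had a median of -0.11 and amino acid carriers of -0.10. Of the latter 11 of 13 lay below 0, beside 2300 of 3453 of all named genes. Of the metal carriers 13 of 13 lay within 1.2-fold, beside 3036 of 3453.

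The proteins that power or assist these carriers were described from lists. Of 18 primary pump genes 11 were on the array, and 7 were measured against ETEC, with medians of -0.07 for TL2937 and -0.04 for TL2766. ATP1B1, the beta subunit of the sodium pump, gave 7921, 6311 and 6766 (-0.33 and -0.23) and was the one pump gene at least 1.2-fold lower with TL2937. Of 17 channel genes, 4 were measured, and AQP3, a water and glycerol channel, was at 142 on the ETEC array, 69.8 with TL2937 and 84.0 with TL2766. This is -1.02 and -0.76. With lactobacilli AQP3 lay below 100, where gaps between same-sequence probes reached 1.04 and 1.18, so neither value is beyond the largest gap. SLC1A1 had the same sign, and both genes were set against the same ETEC array. CFTR and SCNN1A were not well above background. Of 16 iron and zinc genes, 10 were measured and HMOX1, the haem-degrading enzyme, was higher with both at 28433, 39595 and 37671 (0.48 and 0.41). Others of that list were lower: CP at -0.44 and -0.06, and HAMP at -0.29 and -0.33. The ferritin subunits FTH1 and FTL and the zinc-binding MT1A moved by at most 0.24. Of 10 genes of the amino acid response, 4 were on the array by name, and all were measured. Below 0 lay 4 of 4 with TL2937, beside 2077 of 3446 of all named genes, with a median of -0.24. With TL2766, 2 of 4 lay below 0, beside 1739 of 3423, with a median of -0.05. ATF4, the transcription factor of this response, gave 37950, 31205 and 34785. Of 14 scaffold genes, 8 were measured and EZR, which ties carriers to the actin brush border, gave 7784, 6448 and 6900, at -0.27 with TL2937. Of 15 ABC transporters, 6 were measured, with ABCG2, an efflux pump, at 11610, 9191 and 10003 (-0.34 and -0.21). ABCB4 went the other way, at 95.3, 111 and 116 (0.22 and 0.28). Of 2 organic anion carriers of the SLCO family, SLCO2A1 was measured, at 69.8, 70.6 and 73.2.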

How the data were processed

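RNA (200 ng per sample, labelled with Cy3 per the labels' protocols) of 3 cultures was measured on 1-colour Agilent porcine arrays, 1 array per group, all on 1 slide; groups came from the labels. Agilent Feature Extraction 10.7.3.1 made the deposited processed intensity, per the file headers, with a fitted background subtracted, a trend within the array corrected and low signals replaced by surrogate values. Mean spot and local background intensities, used for the normexp alternative, precede that subtraction per the file headers. The value table of the authors holds the same intensities, rounded (largest deviation 0.496%; medians 37, 40.9 and 38.8), linear and uncentred. The genome build is not given in the sources used here.

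The log2 processed intensity was centred on each array's 75th percentile over non-control spots. Outlier spots (8, 9 and 4) were left out and spots of a probe averaged. A gene was measured in a comparison where its brightest probe was well above background on both arrays, and was called at 2-fold. A gene above background on 1 array got a bound from the higher of its dim value and the lowest detected signal. All named genes were the 4641 whose array name is a symbol or synonym in a RefSeq table (Sscrofa11.1), which held 105 of 105 members. The steps were tested on simulated data. Most solute carriers were named by a rule: those at least 1.5-fold apart, up to 3 bounds per direction, and the brightest and most different members of each substrate class. Several genes of the partner and marker lists were named outside this rule. A few genes and 1 of the 4 SLC1A1 probes are not reported here. The members, classes and lists were chosen with earlier results of these data known. Alternatives were other background corrections, scalings, filters, probe rules, memberships and thresholds. Software was R 4.3.3 with limma 3.58.1 and Python 3.11.15 with pandas 2.3.3, numpy 2.4.6 and matplotlib 3.10.9.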

Additional observations from a re-analysis of the deposited data

How the results depend on the processing

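No paired analysis was possible because each group has 1 array, and no replicate could be left out. The median of the solute carriers ran from -0.05 to 0.02 with TL2937, from 0.004 to 0.04 with TL2766 and from -0.06 to 0.001 between the lactobacilli over the alternatives tried, each within the spot SD of its main value. The single gene at least 2-fold lower, SLC1A1, was lost with normexp correction, where the counts lower were 0 for TL2937 and 0 for TL2766 against ETEC; with both arrays above the median detected signal, where they were 0 and 0; and at a threshold of 3-fold, again 0 and 0. At 1.5-fold the count lower with TL2766 was 2. With no background filter, 3 genes were higher and 7 lower with TL2937, 3 higher and 7 lower with TL2766, and 9 higher and 5 lower between the lactobacilli; by its construction this setting adds genes not well above background. The sugar class median with TL2937 became -0.0796 with normexp, and the inorganic ion median became -0.16 without the filter; the cause was not tested for the sugar class. With the mean of all probes, SLC2A4 with TL2937 turned to 0.018 and SLC27A1 with TL2766 to 0.12. Of 504 values of single genes, 449 stayed within the spot SD, 53 moved further and 2 reversed; counting small values too, 14 took the other sign. Under the scalings tried, the median of all named genes lay between -0.06 and -0.002. Precision is limited by 1 array per group and, for probes below 100, by their distance from background.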

Other observations

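A further 33 genes carry a solute carrier symbol in the reference table but another name on the array. Of these, 26 were measured in each comparison, with medians of -0.13 with TL2937, -0.004 with TL2766 and -0.08 between the lactobacilli. At least 2-fold lower were 0 of 26 in each comparison. The lowest value against ETEC belonged to SLC2A12 (GLUT12), a hexose carrier read by 1 probe, which gave 121 in ETEC, 61.5 in TL2937+ETEC and 63.4 in TL2766+ETEC, the order kept below, with log2 differences of -0.98 and -0.93. SLC38A2 (SNAT2), the glutamine carrier known to respond to amino acid shortage, gave 68369, 54528 and 62537, at -0.33 with TL2937 and -0.13 with TL2766. SLC39A4 (ZIP4), the apical zinc importer of enterocytes, gave 287, 230 and 246. The copper carrier SLC31A2 gave 66.9 in ETEC and 66.8 in TL2766+ETEC, and its log2 difference with TL2937 was -0.45.

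SLC46A2 and SLC2A4RG of this set were brighter with TL2766. SLC46A2 gave 99.1, 85.9 and 129, and the lactobacilli differed by -0.59. SLC2A4RG, which regulates the SLC2A4 gene and is no carrier, gave 29.5, 29.3 and 40.4. SLC39A8 (ZIP8), a zinc and manganese importer, gave 678, 672 and 649, within 1.2-fold on all arrays. These genes were picked from the 33 after their values were seen.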
